A study of Saccharomyces cerevisiae with 13 samples.

Results

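The chromatin described here is newly replicated DNA of rtt109Δ yeast at 2 min and at 6 min of a chase, which are 4 of the 13 libraries of the series (12 nascent and 1 bulk). The members are defined by their labels: the libraries at 2 min (n = 2) and 6 min (n = 2) that the description and the incubation label call nascent. Time is counted from the end of a thymidine incubation. This pair of times was chosen with earlier results of these data known. All of them come from asynchronous cells of a W303 derivative that carries a thymidine kinase and the transporter h-ENT1. The cells were pulsed with EdU for 5 min, then given thymidine for 5 min, and fixed in formaldehyde. The titles name the rtt109D mutant, while the source label names a chd1 deletion in the same libraries. The titles also call these libraries input DNA, against the descriptions, which were followed here, so that their being nascent rests on the descriptions. The bulk library is MNase-digested chromatin of all the DNA of this strain. The groups thus share every allele and agent and differ in the chase time only.

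When a replication fork passes, nucleosomes are taken off and built again behind it from old and new histones. New histone H3 in yeast carries acetyl groups on lysine 56, which Rtt109 adds together with the chaperone Asf1, and which favour the handover of histones to the assembly factors. In finished chromatin, an array of regularly spaced nucleosomes starts at the +1 nucleosome next to the transcription start site (TSS), and a nucleosome-depleted region (NDR) lies upstream of it. Micrococcal nuclease (MNase) cuts the DNA between nucleosomes, so that the surviving fragments give their positions. NChAP isolates those fragments that carry EdU, and so shows nucleosomes on DNA of known age.

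For each of 6326 genes the deposited tables hold the signal in 106 bins of 20 bp, 26 before the TSS and 80 after it, as coverage over the library mean. Such values compare shapes and shares between libraries and not absolute amounts of nucleosomes, so a lower signal at one place is a smaller share of the fragments. Replicates 1 and 2 had 20.4 and 62.2 reads per bin at 2 min and 24.6 and 78.1 in the 6 min libraries, and between 1.95% and 5.02% of the bins were listed at 0. Chromosome 12 was listed at 0 throughout in replicate 2 and was left out, which leaves 5779 genes. RTT109 lies on that chromosome, so that only replicate 1 can check its deletion: its gene body had 0.0230 and 0.0252 times the library mean at 2 and 6 min. CHD1 had 1.08 and 1.15 times the mean at 2 min and 0.800 and 1.13 times at 6 min, and was therefore present in all 4 libraries against the source label.

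The first question was whether the average nucleosome array changed between 2 and 6 min. It did so in a pattern with 2 sides: the signal fell over the promoter and the +1 nucleosome and rose over the nucleosomes that follow. Of 106 bins, 51 passed the test (48.1%), 26 higher (24.5%) and 25 lower (23.6%) at 6 min (limma, adjusted p under 0.05). Both 6 min libraries lay above both 2 min libraries in 39 bins (36.8%) and below them in 42 (39.6%). The bins that fell formed 1 unbroken run of 24 bins, from 330 bp upstream to 130 bp downstream of the TSS, with a single further bin at 1150 bp. The bins that rose formed 5 separate runs centred on nucleosomes +2, +3, +4, +5 and +6.

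**Figure D1:**
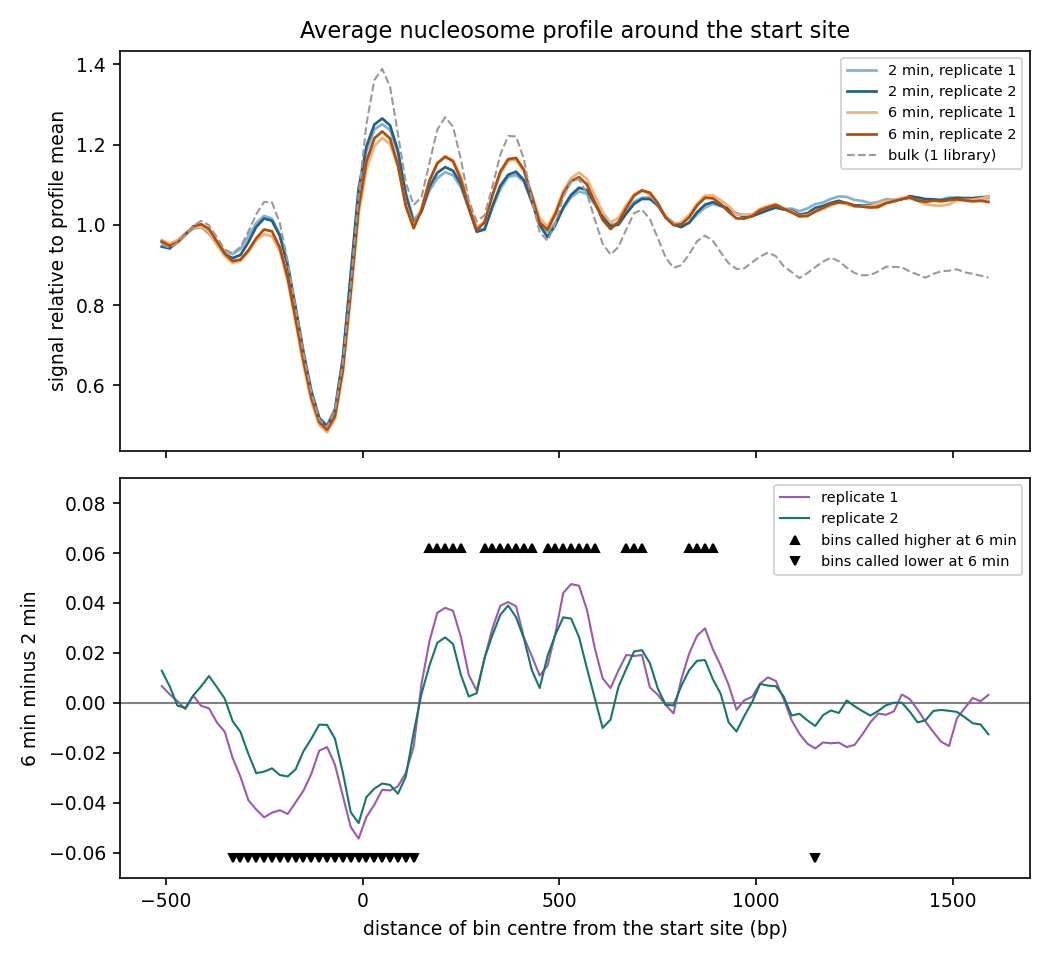
Average signal over genes in 20 bp bins (top; y axis relative to the profile mean, x axis distance from the start site in bp) in the 2 min, 6 min and bulk libraries, and the 6 min minus 2 min difference in each replicate (bottom). Triangles mark the 26 bins called higher and the 25 called lower; the differences are -0.0543 and -0.0481 at -10 bp and 0.0404 and 0.0390 at 370 bp in replicates 1 and 2.

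The deepest fall lay at -10 bp, on the edge between NDR and +1 nucleosome, where the signal went from 1.08 and 1.09 to 1.03 and 1.04. The difference there was -0.0512 ± 0.00525 (SE). At the +1 peak itself, at 50 bp, the libraries had 1.25 and 1.26 at 2 min and 1.22 and 1.23 at 6 min, a difference of -0.0335 ± 0.00525. The -1 peak, at -250 bp, went from 1.02 and 1.02 to 0.976 and 0.988. In all 3 places both 6 min libraries lay below both 2 min libraries, and the bulk library was higher than all 4 at the +1 and -1 peaks, with 1.39 and 1.06.

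The +2 peak rose from 1.13 and 1.14 to 1.17 and 1.17, and the +3 peak from 1.12 and 1.12 to 1.16 and 1.16. The largest rise was 0.0407 ± 0.00525 at 530 bp, on the near side of the +4 nucleosome. Of the 7 troughs, 2 passed the test: that after +3 rose by 0.0168 (adjusted p = 0.0040 in limma, 0.043 with the replicate block), nearly as much as the +5 peak, and that after +1 differed by -0.0146 (adjusted p = 0.013, 0.058 with the block). The other 5 did not pass, as that after +2 with 0.00442. The +7 peak, with a difference of 0.00858, did not pass either (adjusted p = 0.17 in limma). With the replicate number as a block, 40 bins passed, the +1, +2 and +3 peaks among them (adjusted p = 0.017, 0.028 and 0.017 in limma). All bins share 1 estimate of the spread and neighbouring bins are not independent, so the p-values of single bins are smaller than 4 libraries alone would give.

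The same change can be read nucleosome by nucleosome as the peak/trough ratio, which divides a peak by the average of the troughs on its sides. The ratio was higher in both 6 min libraries than in both 2 min libraries at each nucleosome from +2 to +7. At +2 the 2 min libraries had 1.13 and 1.15 and the 6 min libraries 1.18 and 1.18, against 1.23 in bulk. At +7, the last nucleosome measured, it was 1.01 and 1.02 against 1.03 and 1.03. The mean over these 6 nucleosomes went from 1.088 ± 0.00854 (SD, n = 2) to 1.110 ± 0.00414, while bulk had 1.16. The 4 min libraries already had 1.108 and 1.108.

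**Figure D2:**
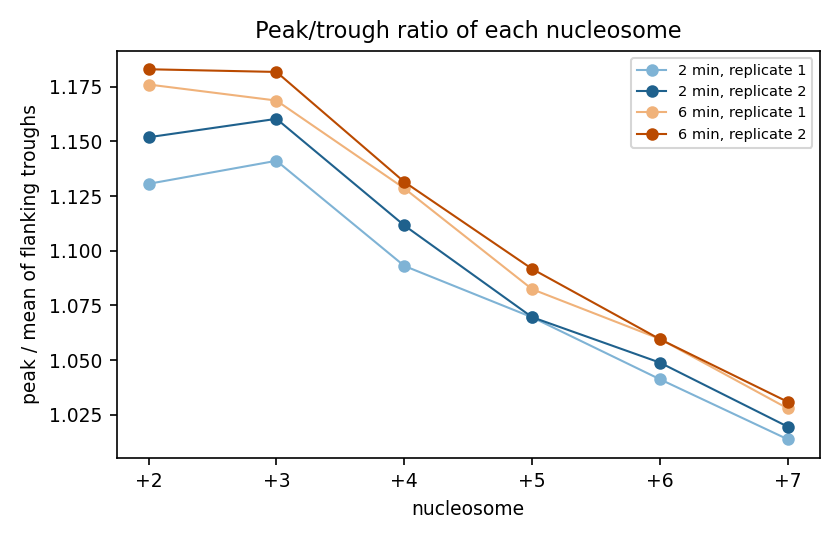
Peak height divided by that of the flanking troughs for nucleosomes +2 to +7 (x axis) in each of the 4 libraries, as a ratio without unit (y axis starts above 0). At every nucleosome both 6 min points lie above both 2 min points, from 1.18 and 1.18 against 1.13 and 1.15 at +2 to 1.03 and 1.03 against 1.01 and 1.02 at +7.

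Of the 5 single measures of the profile, 4 had groups that did not overlap. The NDR, as the lowest bin over the mean, went from 0.50 and 0.498 to 0.483 and 0.489. The +1 height and the peak/trough ratio moved as given above. The root mean square distance from the bulk profile went from 0.0659 and 0.0632 to 0.0720 and 0.0661, so the 6 min profiles were not nearer to bulk by this measure, and with the median over genes the difference had the opposite sign (-0.00711). The linker length, taken as the mean distance of neighbouring peaks up to +4 less the DNA in 1 nucleosome core, came to 19.7 bp in all 4 libraries and in bulk, at the resolution of the 20 bp bins. With 2 libraries a side the smallest two-sided exact permutation p is 0.333, which the 4 measures reached (0.417 adjusted over the 5). None of them could thus pass a threshold of 0.05. This permutation leaves the pairing of the libraries by replicate aside. With the replicate block, which flips the sign of the difference in each replicate, the exact p was 0.5 for the +1 height and the peak/trough ratio.

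At single genes the contrast between peaks and troughs is the mean of the peak bins of nucleosomes +2 to +7 over the mean of the trough bins, compared as log2 with a pseudocount of 0.1. It was taken for the 3286 genes with a value in all of these bins. It rose by a median of 0.04 on the log2 scale (0.04 in each replicate), and 65.7% of the genes were higher at 6 min. With quantile normalization, which sets the distributions of the libraries equal, the median was -0.0044 and 48.4% were higher. Both 6 min libraries lay above both 2 min libraries at 1062 genes (32.3%), and below them at 401 (12.2%). The test called 41 genes (1.25%), of which 37 rose (1.13%) and 4 fell (0.122%). These calls rest on a fit in which every gene has the same SE, 0.08.

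PET8, which encodes the mitochondrial carrier of S-adenosylmethionine, had the largest rise. Its peak/trough contrast went from 0.801 and 0.885 to 1.11 and 1.20 (log2 change 0.46, SE 0.08, adjusted p = 9.8e-05 in limma). EXG2, an exoglucanase of the cell wall, went from 0.940 and 1.00 to 1.24 and 1.41. GSH2, glutathione synthetase, went from 0.933 and 0.919 to 1.19 and 1.27. In PET8 and GSH2 the ratio was below 1 in both 2 min libraries and above 1 in both 6 min libraries, and bulk had 1.03 and 1.25. EXG2 had 1.35 in bulk.

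SRB4, a subunit of the Mediator complex, started from 1.03 and 1.18 and reached 1.55 and 1.39. OAF3, a transcription factor of oleate metabolism, had 0.700 and 1.08 at 2 min and 1.18 and 1.16 at 6 min, so its replicates differed at 2 min and its rise came mainly from replicate 1. These are the 5 largest of the 37 rises.

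The 4 genes that fell were PAF1, YBR284W, MAM3 and YPK2. PAF1, a subunit of the elongation complex of the same name, had 1.55 and 1.26 at 2 min and 1.12 and 1.10 at 6 min (log2 change -0.33, SE 0.08, adjusted p = 0.014 in limma). YPK2, a protein kinase, went from 0.971 and 1.03 to 0.793 and 0.841, near the 0.841 of bulk. Of the genes for histone chaperones and the H3K56 acetylation pathway, which include ASF1, the CAF-1 and HIR subunits, 10 of 16 tested lay higher in both 6 min libraries and 0 lower, beside 32.3% and 12.2% of all genes, with a median of 0.11 on the log2 scale beside 0.04 over all genes, and 0 passed the test. The 17 chromatin remodeller genes had 7 higher (41.2%), 0 lower, and a median of 0.05, near the values over all genes.

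The count of called contrasts depended on the libraries used. It was 2 when replicate 1 at 2 min was left out, and 9 when either replicate at 6 min was left out. In a fit with all 10 libraries from 2 to 15 min it was 0. The single genes are thus values to be read beside their 4 libraries, while the rise of the median had the same size in each replicate on the deposited scale.

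The next question was whether genes differed in how much of the nascent signal they held at the 2 times. The gene body signal is the mean from the TSS to 1000 bp, relative to the library mean. At 53 of 5690 genes (0.931%) it changed, with 43 rises (0.756%) and 10 falls (0.176%), on the scale log2(value + 0.1). The rises spanned 0.61 to 1.59 and the falls -0.60 to -0.96. The 43 genes that rose had a median of 0.368 at 2 min and 0.798 at 6 min, with 0.812 in bulk. The 10 genes that fell had a median of 1.03 at 2 min and 0.544 at 6 min, with 0.514 in bulk. Since the genes were called on this change, their low or high values at 2 min follow in part from the choice.

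CLC1, which encodes the clathrin light chain, had a body signal of 0.214 and 0.235 at 2 min and 0.697 and 0.647 at 6 min (log2 change 1.25, SE 0.12, adjusted p = 0.00083 in limma). Its neighbour TRS65, a subunit of the TRAPP complex of vesicle traffic, went from 0.199 and 0.288 to 0.669 and 0.746. Bulk had 0.812 for CLC1 and 0.710 for TRS65. The largest rise was at YCR087C-A, from 0.214 and 0.260 to 0.817 and 1.01, well above its bulk value of 0.343. YCR087W, which overlaps it on the other strand, had nearly the same values (0.233, 0.279, 0.840 and 1.02), and its reads cannot be told apart from those of YCR087C-A here.

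CSS2 rose from 0.0242 and 0.206 to 0.457 and 0.509, with replicates that differed at 2 min. YER119C-A rose from 0.0531 and 0.0357 to 0.199 and 0.331, and YOR135C from 0.321 and 0.135 to 0.683 and 0.650. With CSS2 and the pair on chromosome 3 they make up the 5 largest rises. YCR087W, YER119C-A and YOR135C have no locus tag in the R64 assembly, as is true of 15 of the 53 called genes, and no product is given for them.

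Other called rises, named after their values were seen and for no shared role, include TSL1, CCP1, GLK1, SOD2 and ATG18. TSL1, a subunit of trehalose synthase, went from 0.597 and 0.652 to 1.28 and 1.25. CCP1, the mitochondrial cytochrome c peroxidase, went from 0.452 and 0.401 to 0.872 and 0.932. GLK1, glucokinase, went from 0.844 and 0.724 to 1.26 and 1.27. SOD2, the mitochondrial superoxide dismutase, went from 0.392 and 0.417 to 0.654 and 0.696. ATG18, a phosphoinositide-binding protein of autophagy next to CSS2, went from 0.433 and 0.420 to 0.949 and 0.841, and it is with OAF3 one of 2 genes called in both body and contrast, of 16 called bodies that the contrast also tested.

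RPL7A, a protein of the large ribosomal subunit, was among the genes that fell: 1.17 and 1.18 at 2 min, 0.672 and 0.690 at 6 min, and 0.611 in bulk (log2 change -0.71, SE 0.12, adjusted p = 0.025 in limma). RPL41A, another such protein, went from 0.951 and 0.987 to 0.576 and 0.561. RRP14, a nucleolar factor of ribosome synthesis, went from 1.63 and 1.66 to 1.04 and 1.06, where bulk had 1.01. With RPL7A, the 5 largest falls were YOR314W-A (1.12 and 1.07 to 0.443 and 0.595), YHR180W-A (0.526 and 0.459 to 0.264 and 0.186), MIN10 (0.675 and 0.564 to 0.319 and 0.357) and YHL041W (0.823 and 0.697 to 0.405 and 0.448).

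**Figure D3:**
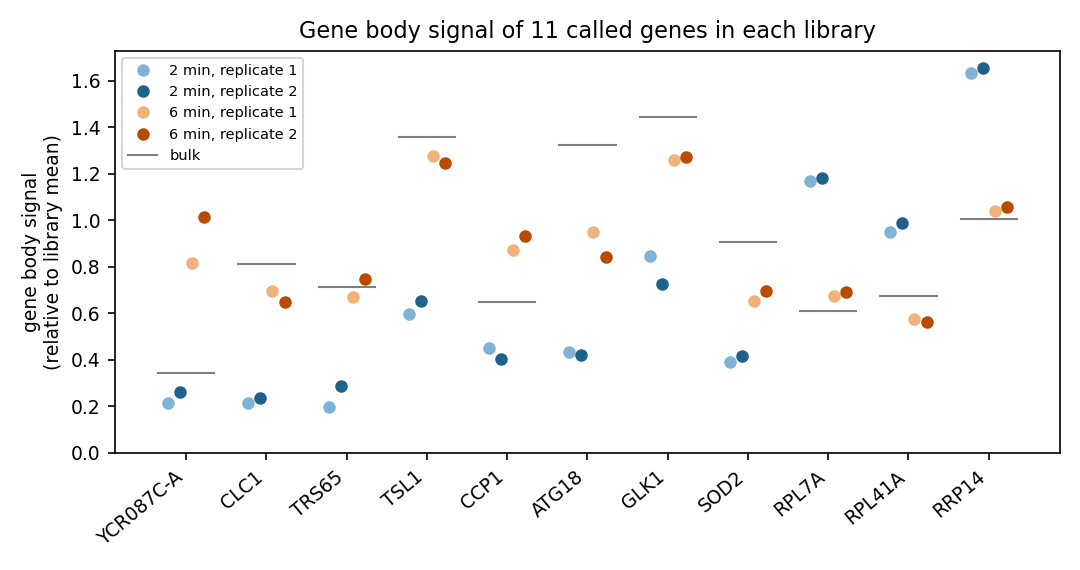
Gene body signal (y axis, relative to the library mean) of 11 called genes in the 4 libraries (points) and in bulk (grey lines). The 8 genes on the left lie higher in both 6 min libraries, as CLC1 with 0.697 and 0.647 against 0.214 and 0.235, and the 3 on the right lie lower, as RPL7A with 0.672 and 0.690 against 1.17 and 1.18.

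The called genes lay together along the chromosomes. Of the 53, 22 had another called gene within 5000 bp of their TSS (41.5%), against 4.25% of all genes tested, and they formed 10 groups in each of which all members moved the same way. The 220 genes that were not called but lay as near to a called one had a median of 0.09 on the log2 scale, beside 0.00 for all genes. The groups include CLC1 with TRS65, CSS2 with ATG18, SCS2 with YER119C-A and GLO3, and OAF3 with CCP1 and GPT2. Neighbours can overlap and share fragments, so these are fewer independent places than genes.

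The count of called bodies also moved with the libraries. Without a single library it was 25 (2 min, replicate 1), 22 (6 min, replicate 1), 113 (2 min, replicate 2) and 27 (6 min, replicate 2). With quantile normalization it was 19, of which 12 rose and 7 fell. With the replicate number as a block it was 115, and with 10 libraries in 1 fit it was 4. All 53 kept their direction in the 4 fits that leave out a library. At each of them both 6 min libraries lay above, or both below, the 2 min libraries, so this outcome was fixed beforehand.

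**Figure D4:**
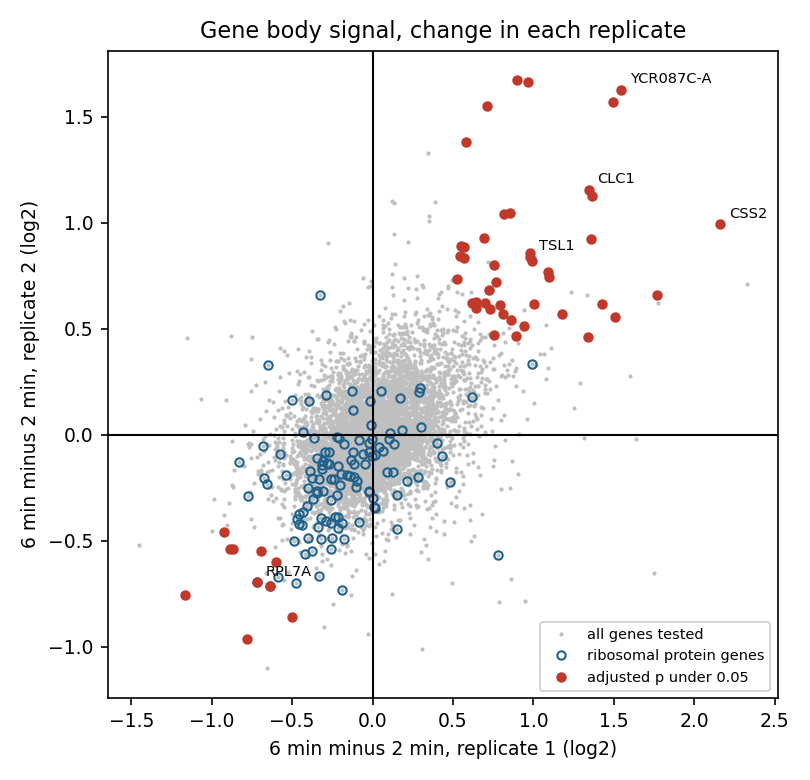
Change of the gene body signal from 2 to 6 min on the log2 scale in replicate 1 (x axis) and replicate 2 (y axis) for 5690 genes. The 53 called genes (filled) lie in the upper right and lower left corners, and 68 of the ribosomal protein genes (open circles) were lower in both 6 min libraries than in both 2 min libraries.

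Ribosomal protein genes are among the most transcribed genes of yeast. The files hold 135 of them, of which 18 lie on chromosome 12 and were left out. Both 6 min libraries lay below both 2 min libraries at 68 of the rest (58.1%) and above them at 5 (4.27%), while over all genes these shares were 24.6% and 24.8%. Only RPL7A and RPL41A passed the test. The median change was -0.19, with -0.22 in replicate 1 and -0.19 in replicate 2, and single genes spanned -0.71 to 0.66. The median level went from 0.761 and 0.753 to 0.668 and 0.653, with 0.688 in bulk. Many of these genes exist as near-identical pairs, between which the mapping of reads is uncertain.

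Among glycolysis genes, 8 of 17 (47.1%) were higher in both 6 min libraries and 2 (11.8%) lower, beside 24.8% and 24.6% of all genes, with a median of 0.16, and GLK1 was the only one to pass. ENO2, an enolase, had 0.275 and 0.310 at 2 min and 0.502 and 0.409 at 6 min, which did not pass (adjusted p = 0.10 in limma). Of 11 histone genes, 6 (54.5%) were higher in both 6 min libraries and 0 lower, beside the same 24.8% and 24.6%, and 0 passed. Heat shock genes had like counts, with 7 of 13 higher (53.8%) and 2 lower, as had PHO genes, with 4 of 8 higher and 0 lower. HTA1, for histone H2A, went from 0.408 and 0.411 to 0.652 and 0.592 (log2 change 0.50, adjusted p = 0.076 in limma). HHT2, for histone H3, had 0.321 and 0.496, then 0.656 and 0.625. HHF1, for histone H4, had 0.344 and 0.353, then 0.329 and 0.345. Core histone genes also come in pairs, such as HHT1 and HHT2, so the mapping of their reads may be uncertain too. In 7 lists without a called gene body (heat shock, PHO, GAL, meiotic, G1/S, daughter-specific and general regulatory factor genes) medians lay between -0.05 and 0.13. The histone chaperone and remodeller lists, also without a called body, had medians of 0.10 and -0.02.

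A property that went with the change over all genes was the GC content of the first 1000 bp after the start codon, which was known for 5146 genes (90.4% of those tested). Over these genes the change correlated with GC content with a Spearman rho of 0.38 (0.30 in replicate 1 and 0.35 in replicate 2). The points share their libraries, so this is a description. The genes were put into 10 groups by GC content. In the lowest (29.8% to 35.6%) the median change was -0.11, and 12.2% of the genes were above and 43.2% below in the 6 min libraries. In the highest (44.2% to 59.2%) it was 0.17, with 53.1% above and 5.72% below.

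GC-rich genes were poor in nascent signal at 2 min, with medians of 0.824 and 0.800 in the highest group, and nearer to the rest at 6 min, with 0.931 and 0.907. In the lowest group the medians were 1.08 and 1.10, then 1.01 and 1.02. Bulk ran in the other direction, with 0.905 in the lowest group and 1.02 in the highest. The peak/trough contrast had no such relation (rho 0.01 over 3283 genes).

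**Figure D5:**
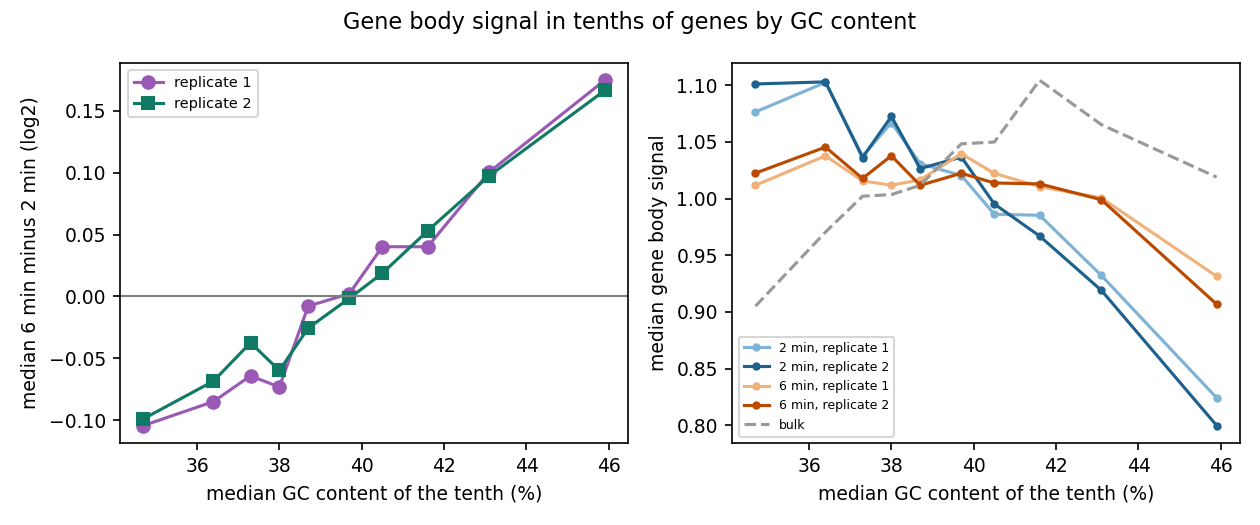
Median change of the gene body signal in log2 (left) and median signal in each library (right) for 10 groups of 5146 genes ordered by GC content (x axis, median of the group in %). The change runs from -0.10 and -0.10 in the lowest group to 0.17 and 0.17 in the highest in replicates 1 and 2, and the 2 min lines fall more steeply than the 6 min lines.

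To show what such a difference in composition looks like, the first 150 bases from the start codon are printed for a gene that rose and a gene that fell, picked for their difference in GC content, on the coding strand of the R64 assembly, with G and C in capitals. TSL1 (chrXIII:70624-70773) has 50.7% G and C in this stretch, and RPL7A (chrVII:365847-365996, minus strand) has 35.3%, most of it intron after a short first exon. Called rises are not all rich in GC: over 1000 bp CLC1 had 37.1%, TRS65 35.7% and OAF3 36.4%.
TSL1: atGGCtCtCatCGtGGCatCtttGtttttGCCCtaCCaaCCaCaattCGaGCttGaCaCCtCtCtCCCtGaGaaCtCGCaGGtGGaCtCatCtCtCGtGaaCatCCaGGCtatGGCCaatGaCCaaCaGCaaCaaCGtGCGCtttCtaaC
RPL7A: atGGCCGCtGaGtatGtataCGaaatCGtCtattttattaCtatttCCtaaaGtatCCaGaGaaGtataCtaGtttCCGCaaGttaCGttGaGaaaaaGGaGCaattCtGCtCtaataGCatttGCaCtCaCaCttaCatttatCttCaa

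The median GC content of the ribosomal protein genes was 37.1%, against 39.1% for all genes. With the values regressed on GC content in each library, the median of these genes went from -0.19 to -0.14. After this step 74.4% of them were lower at 6 min, beside 49.5% of all 5146 genes with a GC value. For the 17 glycolysis genes (median GC content 45.5%) the median went from 0.16 to 0.04, and for the 11 histone genes from 0.18 to 0.12.

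Replication time was compared next. In the lowest of 10 groups by the replication time fit in the deposited table, 246 of 564 genes were above (43.6%) and 60 below (10.6%), with a median change of 0.11, where all genes had 24.8% and 24.6%. In the highest group 128 of 552 were above (23.2%) and 161 below (29.2%), close to all genes, with a median of -0.02. The called genes had like counts in both groups, with 9 rises and 1 fall among the 564 of the lowest and 10 rises and 2 falls among the 552 of the highest. Over all genes 0.756% were called higher and 0.176% lower. Genes of the lowest group had median signals of 0.862 and 0.853 at 2 min and those of the highest 1.15 and 1.19, and after the GC correction the medians were 0.10 and -0.02. In the lists of the study, the 193 early-replicating genes had a median of 0.04 and the 180 late-replicating genes of -0.04. The part of replication time in the other differences was not tested.

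Genes called SAGA-dominated in the table, of which many respond to stress, had a median of 0.07, with 182 of 476 above (38.2%) and 74 below (15.5%), beside 24.8% and 24.6% of all genes, and 12 called rises (0.756% of all genes were called higher). TFIID-dominated genes had -0.01, with 19 rises and 6 falls among 4400. The median of the SAGA-dominated genes was 0.05 after the GC correction.

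At promoters the signal from -150 bp to the TSS was set relative to the gene's own body. It fell by a median of 0.07 on the log2 scale (0.09 in replicate 1 and 0.05 in replicate 2), and 41.3% of 5673 genes were higher at 6 min. Both 6 min libraries lay below both 2 min libraries at 1433 promoters (25.3%) and above them at 821 (14.5%). No promoter passed the test (limma, 0 calls, with 145 higher and 292 lower at an unadjusted p under 0.05), and this was so in each of the alternatives tried. With quantile normalization 217 were higher and 200 lower at that p, and 49.0% of all promoters were higher. That step sets the distributions of the libraries equal by construction, so it cannot test the lean to lower values. The +1 nucleosome behaved likewise at single genes, with a median of -0.03, 1300 of 5668 genes below (22.9%) and 909 above (16%), 0 calls, and 482 genes at an unadjusted p under 0.05. For the -1 nucleosome the median was -0.04, with 1250 of 5669 below (22%) and 945 above (16.7%), 0 calls, and 415 at an unadjusted p under 0.05.

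The promoters with the smallest p that rose in both replicates were those of YBR219C, AVT6 and YBR224W. AVT6, a vacuolar amino acid exporter, had a promoter that was listed at 0 in both 2 min libraries and had 0.268 and 0.395 of the body signal at 6 min, against 0.868 in bulk (adjusted p = 0.47 in limma). YBR219C went from 0.0146 and 0.00738 to 0.340 and 0.378, with 0.328 in bulk (adjusted p = 0.45 in limma). YBR224W went from 0.393 and 0.140 to 3.09 and 2.57. DSE1, a gene expressed in daughter cells, had 0.101 and 0.119 at 2 min and 1.11 and 0.614 at 6 min, and YCL041C had 0.158 and 0.258, then 1.12 and 0.702.

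AVT6, DSE1, YCL041C and YBR219C had been named by an earlier comparison that included the 2 min libraries, so their low values at 2 min are not independent of that choice. Their groups did not overlap, as for 14.5% of all promoters in this direction. Among promoters that fell relative to the body was that of EFT2, which encodes elongation factor 2. EFT2 had 9.74 and 6.42 at 2 min and 2.57 and 2.10 at 6 min. Its near-identical copy EFT1 makes its reads uncertain. YCR087W had 5.42 and 4.95, then 2.06 and 1.34. Its body, by which these values are divided, rose from 0.233 and 0.279 to 0.840 and 1.02. This fall is thus one of the ratio and does not show a loss of signal at the promoter itself. LYS20, homocitrate synthase, had 2.42 and 2.69, then 1.15 and 1.01, without passing the test.

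The sequences before 2 of these promoters are printed from R64, 250 bases before to 50 after the start codon, with unbroken runs of 6 or more A or T in capitals, since such runs are known to disfavour nucleosomes. AVT6 (chrV:400793-401092) and DSE1 (chrV:409014-409313) are both on the minus strand. Each holds 1 such run, and so do 71.7% of 5696 gene windows at least 1, so the run does not set these promoters apart.
AVT6: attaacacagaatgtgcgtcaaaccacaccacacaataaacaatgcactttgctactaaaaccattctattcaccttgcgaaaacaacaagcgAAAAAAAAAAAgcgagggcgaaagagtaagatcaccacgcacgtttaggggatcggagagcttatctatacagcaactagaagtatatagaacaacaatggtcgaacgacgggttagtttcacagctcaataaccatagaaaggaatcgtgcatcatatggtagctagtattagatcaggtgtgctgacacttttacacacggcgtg
DSE1: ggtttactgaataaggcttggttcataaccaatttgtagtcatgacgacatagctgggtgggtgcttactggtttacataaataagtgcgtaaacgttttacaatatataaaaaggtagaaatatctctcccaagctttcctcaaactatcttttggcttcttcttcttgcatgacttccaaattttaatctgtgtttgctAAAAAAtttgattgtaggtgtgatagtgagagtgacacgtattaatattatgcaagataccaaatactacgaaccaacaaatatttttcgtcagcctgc

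At the +1 nucleosome, SAK1, a kinase that activates Snf1, had 0.176 and 0.134 of the body signal at 2 min and 1.11 and 0.983 at 6 min, with 0.827 in bulk (adjusted p = 0.58 in limma). YBP1, a protein of the oxidative stress response, had 0.0587 and 0.0762, then 0.606 and 0.914. PGK1, phosphoglycerate kinase, had 1.10 and 1.11, then 0.536 and 0.566, and MRX3 0.586 and 0.561, then 0.223 and 0.266. SOK2, a transcription factor, had 2.04 and 1.76, then 0.864 and 0.944. At the -1 nucleosome, CCP1 was listed at 0 in both 2 min libraries and had 0.623 and 0.515 at 6 min, and PAM17, a subunit of the mitochondrial import motor beside it, had 0.0628 and 0.0333, then 0.782 and 0.918. None of these passed the test.

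Ribosomal protein genes had lower medians at promoters and at +1 as well. Their promoter signal relative to the body was lower in both 6 min libraries at 44 of the genes (37.6%, beside 25.3% of all). It was higher at 6 (5.13%, beside 14.5%), with a median of -0.26. At the +1 nucleosome these counts were 41 (35%, beside 22.9% of all) and 12 (10.3%, beside 16%), with a median of -0.16. At the -1 nucleosome 25 genes were higher (21.4%, beside 16.7% of all) and 14 lower (12%, beside 22%). None of these values passed at a single gene.

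At the finest level, 323059 pairs of gene and bin were tested over 5678 genes, and 0 passed (limma, smallest adjusted p = 0.33, with 20933 at an unadjusted p under 0.05). Both 6 min libraries were above both 2 min libraries at 18.3% of the pairs and below them at 19.1%. By position these shares followed the average profile: at -10 bp 14.5% were above and 24.6% below, and at 530 bp 22.7% were above and 14.9% below. The change in the average profile was thus spread over many genes, and no single pair of gene and bin passed.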

How the data were processed

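NChAP libraries of rtt109Δ cells were made by the authors from MNase-digested chromatin for 2 biological replicates. Per the labels CASAVA 1.7.0 was used, and the aligner and genome build are not given in the sources used here. The authors deposited other values than counts: signal (coverage relative to the library mean) per 20 bp bin for each strand, aligned to the TSS. The step between values gave the mean reads per bin (every value was a whole multiple within 0.01). Letters R and NaN (1.60% of cells) were taken as missing, strands were averaged, and 37956 rows of 6 names that match no sample were not used.

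The members, gene lists and tests were chosen with earlier results of these data known. Peak and trough bins of genes came from the bulk profile, and average profiles were divided by their mean from -500 to 1000 bp. Genes were compared with limma 3.58.1 in R 4.3.3 on log2(value + 0.1), which understates the change of low values, with Benjamini-Hochberg adjustment over all genes tested. Genes needed values above 0 in the body in all 4 libraries. The prior degrees of freedom were 8.97 for the body, 3.40 for the promoter, 1.66 for +1 and 2.80 for -1, beside 2 residual ones, and infinite for the contrast and the bins of the profile, which then share 1 spread. Profile measures were compared by two-sided exact permutation in Python 3.11.15 with numpy 2.4.6, scipy 1.17.1 and pandas 2.3.3 (figures: matplotlib 3.10.9). Steps were tested on simulated data.

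Named genes were RTT109, CHD1, the histone genes, 4 promoters of an earlier comparison and, for each per-gene test, up to 5 genes a direction with the largest change among those that passed and moved alike in both replicates, or the 3 with the smallest p where fewer than 3 passed; DDI3, YIL046W-A, YDL086C-A, YBR238C and REC114 also met this rule at +1 or -1. Others were named after their values were seen. R64 was matched by locus tag (5699 of 6326 genes) for names, GC content and printed sequences only. Its coordinates are not those of the deposited tables.

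The replicate numbers pair the libraries, since per the labels the time points are aliquots of 1 culture. Over 5690 genes the deviations of the replicates at 2 and at 6 min correlated with r = 0.03, and the 6 minus 2 min changes of both replicates with r = 0.42. Alternatives were the pseudocount, a filter on low signal, the replicate block, 10 libraries in 1 fit, quantile normalization, an intensity trend, each strand alone, the median over genes, bins at 0 left out, pooled time points and the omission of each library. Fits with 8 libraries, with a GC correction and with genes complete in every bin were added after seeing the data.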

Additional observations from a re-analysis of the deposited data

How the results depend on the processing

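The promoter, +1, -1 and gene-and-bin counts stayed at 0 in every alternative, except for 3 genes at -1 with quantile normalization. The 53 called gene bodies became 164 with a pseudocount of 1, 145 with an intensity trend, 115 with the replicate block, 19 with quantile normalization, 11 on the F strand and 11 on the R strand alone, and 4 with 10 libraries in 1 fit, with the block or without it. Among alternatives chosen after seeing the data, 8 libraries without 4 min gave 8, genes with a locus tag 123 of 5146, and these with the GC correction 44, or 179 with the replicate block too. Leaving out 1 library gave 22 to 113. Of the 53 called genes, 38 (71.7%) have a GC value, so a GC check covers only these. With the GC correction 30 of the 38 were still called. They had been called in these same libraries, so this is no independent check.

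The 41 called contrasts became 50 with the replicate block, 20 on the R strand and 4 on the F strand alone, 9 with quantile normalization, and 0 with 8 or 10 libraries, with the block or without it. Leaving out 1 library gave 2 to 53. Quantile normalization, which sets the medians of the libraries equal by construction, turned the median contrast to -0.0044 and the median +1 change to 0.0020, and left the median promoter change at -0.0075. The 51 bins of the profile became 28 with the median over genes. The replicate block moved no other count by over 1.5 times. For all other changes of count the cause was not tested.

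The NDR, +1 and peak/trough differences kept their direction in all 8 alternatives. Those with the replicate block or without a replicate could not turn it, since the groups did not overlap. With 2 and 4 min against 6 and 8 min the +1 difference was -0.0403 and the peak/trough difference 0.0104 (exact permutation p = 0.029 and 0.23, and 0.057 for the NDR). These p-values take 8 libraries from 2 cultures as independent, so they are too small. The distance from bulk turned to -0.00711 with the median over genes and kept its direction in 7, with the same limit. The replicates carry 20.4 to 78.1 reads per bin, so a bin of a single gene in replicate 1 rests on about 20 to 25 reads, which limits all per-bin values, and 2 libraries a time limit every test.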

Other observations

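The libraries at other times show where the 2 and 6 min values lie. The Spearman correlation of the gene body signal with bulk over 5690 genes came to 0.43 and 0.41 in the 2 min libraries, to 0.41 and 0.44 in the 4 min libraries, and to 0.56 and 0.53 at 6 min, 0.58 and 0.60 (8 min), and 0.55 and 0.59 (15 min). It was lower in the single libraries at 0 min (0.35, with only 2.57 reads per bin) and at 25 min (0.37), so it did not rise throughout. The +1 height at 15 min, 1.25 and 1.27, was again at its 2 min values. The mean peak/trough ratio had 1.108 and 1.108 (4 min), 1.107 and 1.113 (6 min), 1.098 and 1.115 (8 min) and 1.100 and 1.104 (15 min). It thus showed no steady rise after 4 min toward the 1.158 of bulk. The median body signal of the ribosomal protein genes had 0.668 (0 min), below its 2 min values, then 0.731 and 0.723 (4 min), 0.598 and 0.630 (8 min), 0.594 and 0.602 (15 min) and 0.555 (25 min), with 0.688 in bulk. For 17 of the 43 gene bodies that rose, both 2 min libraries were lower than all 8 libraries from 4 to 15 min. These genes were called on their rise from 2 min, so this count follows in part from the choice. The share over all genes was not computed.

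Single genes did not all keep their 6 min state. The contrast of PET8 had 1.15 in the 0 min library and 1.10 and 1.02 in the 4 min libraries, and after its 6 min values of 1.11 and 1.20 it had 1.06 and 0.930 (8 min), then 0.920 and 0.947 (15 min). That of GSH2 had 1.01 and 1.17 (8 min), then 1.21 and 1.12 (15 min). The promoter of AVT6 had 0.585 in the 0 min library, was listed at 0 also in both 4 min libraries, and had 0.472 and 0.224 of the body signal at 8 min and 0.485 and 0.641 at 15 min. The body of HTA1 had 0.431 at 0 min and 0.252 and 0.599 at 4 min, and went on to 0.771 and 0.928 at 8 min and 1.04 and 0.998 at 15 min.

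Chromosome 12 has signal in replicate 1 alone, where 521 of its 547 listed genes had signal at both times. Its peak/trough ratio was 1.09 at 2 min and 1.12 at 6 min, and its +1 height 1.22 and 1.18, without a replicate to test them.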
